A study of Mus musculus with 3 samples.

Results

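The 7 genes described here encode enzymes that build or supply the O-mannose glycans of dystroglycan: Pomt1, Pomt2, Pomgnt1, Pomgnt2, Pomk, B4gat1 and Gmppb. They were taken by name out of the 35562 genes to which the transcripts of the deposited tables could be assigned, and the values of each gene were summed over its transcripts. The libraries came from 3 myoblast lines, numbered 66, 67 and 72, of mouse cells with the genotype Dmdmdx; Pax7-nGFP in which the mdx mutation had been edited with CRISPR/Cas9. The lines were derived from muscle of mouse-mouse chimeras, which the study made by injecting edited induced pluripotent stem cells into Pax7Cre/ERT2; Rosa26lsl-DTA blastocysts. In this host tamoxifen ablates Pax7-expressing cells. The labels do not give which of these lines came from tamoxifen-injected hosts, nor the age or sex of the animals. All 3 lines share the mdx allele, the edit and the Pax7-nGFP reporter and form 1 group, with 1 library per line, so levels and their spread between lines were described and no condition was compared. Myoblasts of Pax7-nGFP mice and embryonic fibroblasts were not analysed here.

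Dystroglycan spans the muscle cell membrane. Its inner subunit binds dystrophin, the protein that mdx muscle lacks, and its outer subunit binds laminin of the basement membrane through a long sugar polymer called matriglycan. That polymer is built on a mannose which the POMT1 and POMT2 complex attaches in the endoplasmic reticulum. POMGNT2 opens the branch known as core M3 that carries matriglycan, POMK phosphorylates its mannose, and after several further enzymes B4GAT1 lays down the glucuronic acid primer on which matriglycan is extended. POMGNT1 acts in the Golgi and opens the alternative core M1 branch. GMPPB makes GDP-mannose, from which the mannose donor is produced. Loss of these enzymes in people causes the muscular dystrophies known as dystroglycanopathies.

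Transcripts of all 7 enzymes were detected in every line. These are bulk libraries, in which fewer cells with a transcript and less of it per cell cannot be told apart. Levels are given as TPM, transcripts scaled to a total of 1000000 per library, a unit that corrects for transcript length and so allows genes to be compared with each other. Total estimated counts were between 66972426 and 73274315 per library. The 6 myoblast markers examined (Pax7, Myf5, Myod1, Des, Itga7 and Cdh15) had at least 10 TPM in every line, whereas the summed levels were 0.726 to 1.79 TPM for 4 endothelial markers, 3.004 to 4.31 TPM for 4 immune markers and 0.497 to 0.822 TPM for 5 fibroblast and fibro-adipogenic markers (Adgre1, Lum and Dpt were at 0). Nearly all of the immune sum was Cd68, at 3.90, 2.92 and 4.23 TPM in lines 66, 67 and 72. Ptprc and Cd3e reached at most 0.0690 TPM. The differentiation genes Myog, Mymk, Myh3 and Ckm summed to 444, 597 and 779 TPM in lines 66, 67 and 72. Dmd, the edited gene, had 1.97, 4.61 and 3.66 TPM, and a sum over its transcripts does not show the edit. Chromosome by chromosome, the log2 ratio between a line and the other lines had medians from -0.18 to 0.32, but on the 6 chromosomes that carry the 7 enzymes it stayed between -0.05 and 0.04.

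The transferase complex that starts every one of these glycans was represented by both of its genes at moderate levels. Pomt1 (ENSMUSG00000039254.16, chr2:32236590-32255005 on GRCm38, plus strand) had 16.4, 14.9 and 18.3 TPM in lines 66, 67 and 72 (16.5 ± 1.71, SD, n = 3). Pomt2 (ENSMUSG00000034126.5, chr12:87106861-87147968, minus strand) had 11.4, 11.2 and 12.3 TPM (11.6 ± 0.607, SD, n = 3). In these sums line 72 was highest and line 67 lowest for both genes, and the lowest Pomt1 value lay above the highest Pomt2 value. For Pomt1 this order turned on a short transcript described below, without which line 66 was highest and line 72 lowest. Pomt1 exceeded Pomt2 in 3 of 3 lines, by 0.47 ± 0.08 on the log2(TPM + 1) scale (SD, n = 3), a TPM ratio of 1.42 ± 0.0796. The exact sign-flip permutation test over the lines gave a two-sided p of 0.25, the smallest that 3 lines allow. This p reflects only that the lines shared a direction, whatever the size or spread of the difference. The labels do not say whether the lines came from separate animals. The direction rests on the correction for length (the main transcripts are 2918 bases long for Pomt1 and 5064 for Pomt2), since in CPM, counts scaled to 1000000 per library with no such correction, the difference was -0.34.

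The enzymes that commit the mannose to a branch differed more. Pomgnt1 (ENSMUSG00000028700.14, chr4:116123840-116159849, plus strand) was the highest of the 7, with 47.0, 45.3 and 49.5 TPM (47.3 ± 2.12, SD, n = 3). Pomgnt2 (ENSMUSG00000066235.7, chr9:121981606-121997110, minus strand) was the lowest as a gene sum, with 6.78, 6.43 and 6.52 TPM (6.58 ± 0.183, SD, n = 3). With protein-coding transcripts only, Pomt2 was about as low (6.35 ± 0.211 TPM, against 6.39 ± 0.361 for Pomgnt2, SD, n = 3 each), and their ranges overlapped. As gene sums, the core M1 enzyme stood 7.19 ± 0.352 times above the core M3 enzyme (SD, n = 3), in 3 of 3 lines. On the log2(TPM + 1) scale this difference was 2.67 ± 0.07 (SD, n = 3; exact sign-flip permutation test, two-sided p = 0.25, the smallest possible). With protein-coding transcripts only it was smaller, 2.28, with Pomgnt1 at 34.9 ± 2.02 TPM (SD, n = 3). Transcript levels of these enzymes do not give their activity, which was not measured.

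Pomk, the kinase of the core M3 mannose (ENSMUSG00000037251.5, chr8:25980604-25994133, minus strand), had 8.80, 7.64 and 7.63 TPM (8.02 ± 0.673, SD, n = 3), so that line 66 stood above the other lines, which nearly coincided. B4gat1, the primer enzyme (ENSMUSG00000047379.7, chr19:5038826-5041131, plus strand), had 20.4, 23.6 and 27.2 TPM (23.7 ± 3.40, SD, n = 3). Line 72 was the highest and line 66 the lowest for B4gat1, the same order of lines as for the summed differentiation genes and for Dag1. That order also occurred in other pathway genes examined below, among them B3galnt2, Pmm1, Pmm2, Tmtc2 and Tmtc3, and its share over all genes was not counted. Any part of differentiation in the B4gat1 order was not tested. Gmppb (ENSMUSG00000070284.10, chr9:108049242-108052801, plus strand) had 9.30, 7.85 and 9.06 TPM (8.74 ± 0.781, SD, n = 3), with line 67 below the others. Its partner Gmppa, which encodes the regulatory subunit of the same enzyme, had 30.5 ± 2.84 TPM (SD, n = 3), 3.51 ± 0.347 times the Gmppb level. Gmppb minus Gmppa was -1.69 ± 0.14 on the log2(TPM + 1) scale (SD, n = 3), below 0 in 3 of 3 lines (exact sign-flip permutation test, two-sided p = 0.25, the smallest possible), and -1.11 in CPM.

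**Figure D1:**
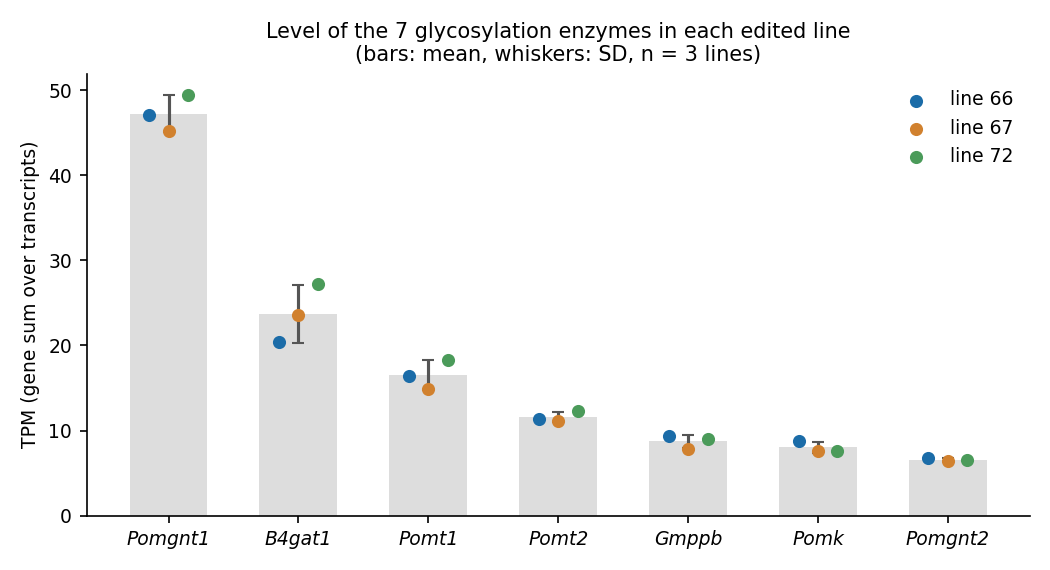
TPM of each of the 7 enzymes (vertical axis, summed over transcripts) in lines 66, 67 and 72 (points), with the mean (bar) and SD (whisker) over the 3 lines. Pomgnt1 stands at 45.3 to 49.5 TPM and B4gat1 at 20.4 to 27.2 TPM, while Gmppb and Pomk are the only neighbours whose points overlap.

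From high to low the order of TPM summed per gene was Pomgnt1, B4gat1, Pomt1, Pomt2, Gmppb, Pomk and Pomgnt2. With protein-coding transcripts only, Pomt2 moved to the last place and Pomk stood above Gmppb, and in CPM, which is not corrected for length, Pomt2 was second and Gmppb last, while Pomgnt1 was first on each scale. The ranges over the lines did not overlap in 5 of the 6 neighbouring pairs, and only Gmppb and Pomk were not separated beyond their spread (7.85 to 9.30 TPM against 7.63 to 8.80 TPM). Of the 25510 genes with any signal, 86.5% lay below Pomgnt1 and 63.2% below Pomgnt2. In every line, 4 of the 7 enzymes reached 10 TPM, as did 31.5% of detected genes and 64.2% of genes averaging 1 TPM or more, and the second share is the closer comparison, since every enzyme had a mean above 1 TPM. All 7 reached 1 TPM in every line, a level that 47.1% of detected genes reached. The median enzyme stood at 3.63, 3.60 and 3.73 on the log2(TPM + 1) scale (3.65 ± 0.07, SD, n = 3), against 4.39 ± 0.03 for the median gene averaging 1 TPM or more and 0.88 ± 0.03 for the median detected gene.

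None of the 7 differed by over 1.5-fold between its highest and its lowest line, on TPM + 1. The background was low as well: 9.03% of the 8428 genes averaging 10 TPM or more, 14.2% of those averaging 1 TPM or more and 12.2% of the 5944 genes between the lowest and the highest enzyme did so. Over 2-fold the shares were 2.17% and 4.05% of the genes at those levels of 10 and 1 TPM, and again no enzyme. The median highest-to-lowest ratio was 1.14 for the enzymes and 1.19 for those 5944 genes. B4gat1 had the widest range, 1.32-fold, and Pomgnt2 the narrowest, 1.05-fold. The narrow range of Pomgnt2 was particular to TPM, since its CPM ranged 1.20-fold, with line 67 lowest on both scales. Counting error in the line with the fewest reads was 1.48% for Pomgnt1 and at most 3.97%, for Gmppb, and covers neither library preparation nor the division of reads among transcripts. In TPM, line 67 was the lowest line for 5 of the 7 enzymes and the highest for none, set beside lowest for 34.8% and highest for 25.8% of all genes averaging 1 TPM or more. It was lowest for 3 in CPM (32.8% of those genes) and for 4 with protein-coding transcripts only (32.9%), and highest for none on either scale (28.9% and 23.2%).

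**Figure D2:**
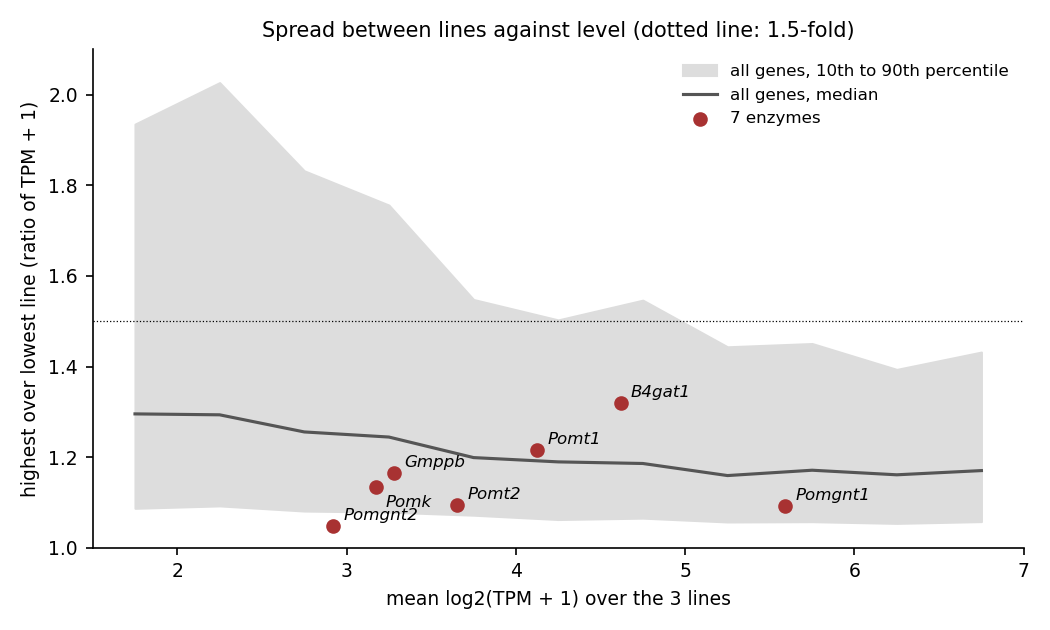
Ratio of the highest to the lowest line (vertical axis, on TPM + 1) against mean log2(TPM + 1) over the 3 lines (horizontal axis) for the 7 enzymes (points), with the median (line) and the 10th to 90th percentile range (grey) of all genes in steps of level. B4gat1 at 1.32 and Pomt1 at 1.22 lie above the median line and the other enzymes below it, Pomgnt2 at 1.05 falls under the grey range, and every point is under the dotted line at 1.5-fold.

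The transcripts behind these sums differed between genes, and the parts of the sequence that set them apart are shown here because they bear on the protein that each message encodes. Pomt2 has 1 coding transcript (ENSMUST00000037788) and a second form (ENSMUST00000222634), here the decay form, annotated as a target of nonsense-mediated decay, the pathway that degrades messages with an early stop codon. The decay form keeps an intron of 81 bases (chr12:87111443-87111523, minus strand). The unspliced form of B4gat1 (ENSMUST00000235776) keeps the single intron of its gene, 274 bases long (chr19:5040033-5040306, plus strand). The intron-retaining form of Gmppb (ENSMUST00000137284), annotated as noncoding, keeps an intron of 83 bases between coding exons (chr9:108050977-108051059, plus strand). Against the main coding transcript it also keeps an intron of 91 bases (chr9:108049421-108049511), not shown here. It has 36 further bases at its 5′ end and 214 at its 3′ end, so its share does not rest on the 83-base intron alone. Sequences are those of GENCODE M21 transcripts on GRCm38, written 5′ to 3′. In the spliced lines, 30 bases of the upstream exon are in lower case and 30 bases of the downstream exon in capitals. In the retained lines, capitals mark the intron, which is shown up to and including the stop codon for Pomt2 and B4gat1 and whole, followed by the next exon in lower case, for Gmppb.
Pomt2 spliced: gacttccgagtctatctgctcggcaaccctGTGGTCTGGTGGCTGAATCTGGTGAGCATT
Pomt2 retained: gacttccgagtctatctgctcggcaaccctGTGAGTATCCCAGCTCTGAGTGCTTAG
B4gat1 spliced: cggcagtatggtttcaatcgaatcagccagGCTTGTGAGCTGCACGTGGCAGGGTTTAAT
B4gat1 retained: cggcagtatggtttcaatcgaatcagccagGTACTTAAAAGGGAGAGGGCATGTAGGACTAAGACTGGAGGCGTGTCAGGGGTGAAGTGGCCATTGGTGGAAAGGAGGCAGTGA
Gmppb spliced: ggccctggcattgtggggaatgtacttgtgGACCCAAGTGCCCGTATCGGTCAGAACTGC
Gmppb retained: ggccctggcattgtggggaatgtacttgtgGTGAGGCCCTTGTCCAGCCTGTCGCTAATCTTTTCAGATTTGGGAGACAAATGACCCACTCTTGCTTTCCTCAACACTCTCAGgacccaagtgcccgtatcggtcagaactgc

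Each retained intron shown above begins with GT and ends with AG and brings a stop codon into the reading frame. In the decay form of Pomt2 the stop begins at base 25 of the intron, after 665 of the 820 codons of the coding transcript and 8 codons read from the intron. The annotated reading frame of the decay form itself is shorter, 603 codons, and that form begins at position 87147474, inside the 5′ end of the coding transcript at 87147902. In the unspliced form of B4gat1 it begins at base 82, after 352 of the 415 codons of the spliced transcript and 27 from the intron, and that transcript is annotated as protein-coding. In the intron-retaining form of Gmppb the first stop in frame begins at base 52, after 256 of the 360 codons of the coding transcript and 17 from the intron.

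Pomt2 was divided between these forms in much the same way in every line. The decay form had 4.84, 4.78 and 5.498 TPM in lines 66, 67 and 72, which was 43.4% ± 1.15 of the gene's TPM (SD, n = 3), and the coding transcript had 6.28, 6.18 and 6.58 TPM, which was 54.7% ± 1.02 (SD, n = 3). By estimated counts, which are not divided by length, the decay form took 29.2% ± 0.963 (SD, n = 3). It ends at position 87108804, before the 3′ end of the coding transcript at 87106861, so its share reflects reads over the intron and the differences at the 5′ and 3′ ends together, and these cannot be told apart in the summed values. A coding share below that of Pomt2 was found for 13.0% of the 11713 protein-coding genes that averaged 1 TPM or more and had reads in every line, whose median was 91.9%.

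The unspliced form took 7.96%, 5.03% and 9.27% of B4gat1 TPM in lines 66, 67 and 72 (7.42 ± 2.17, SD, n = 3), so nearly all of the B4gat1 signal was assigned to the spliced transcript. The intron-retaining form took 25.9%, 25.2% and 20.9% of Gmppb TPM (24.0 ± 2.74, SD, n = 3). No 31-base stretch of that form is absent from the other listed transcripts, so this share rests on how the quantification combined shared reads. Pomk, with 1 listed transcript, and B4gat1 were wholly protein-coding by annotation, Pomgnt2 was 97.1% ± 2.79 and Gmppb 75.4% ± 3.43 (SD, n = 3 each).

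**Figure D3:**
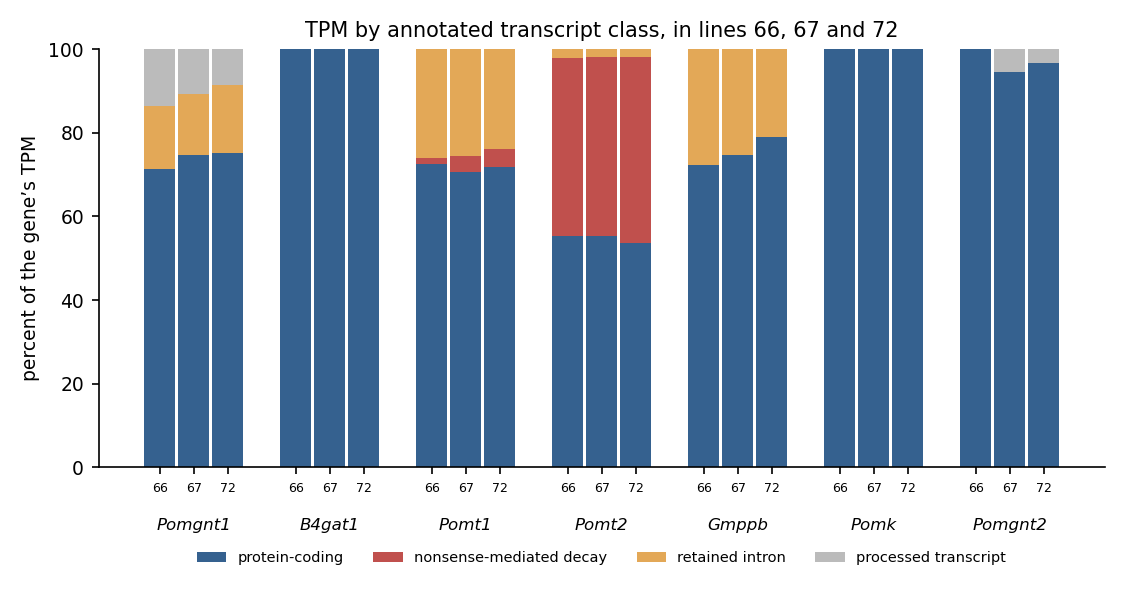
Percent of each gene's TPM (vertical axis) carried by transcripts annotated as protein-coding, nonsense-mediated decay, retained intron or processed transcript, for each enzyme in lines 66, 67 and 72 (bars). Pomt2 has the largest nonsense-mediated decay share, 42.6% to 44.7%, and the processed transcripts of Pomgnt1 run from 8.51% to 13.7%.

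Pomt1 was 71.7% ± 0.997 protein-coding (SD, n = 3), and its rank of lines turned on a short transcript. The partial transcript ENSMUST00000123740 covers the first part of the gene (chr2:32237339-32243712, 750 bases) and was estimated at 0.0425, 0.00749 and 3.59 TPM in lines 66, 67 and 72, from 1.35, 0.218 and 106 estimated counts. Without it, an alternative chosen after the values were seen, Pomt1 had 16.4, 14.9 and 14.7 TPM, so that line 66 and not line 72 was highest and the range fell from 1.22-fold to 1.11-fold. The full-length transcript alone had 11.4, 10.1 and 9.19 TPM, with line 66 again highest. CPM also placed line 66 first, at 29.2 against 26.7 and 26.3. Only 18 stretches of 31 bases belong to the partial transcript and to no other listed transcript.

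**Figure D4:**
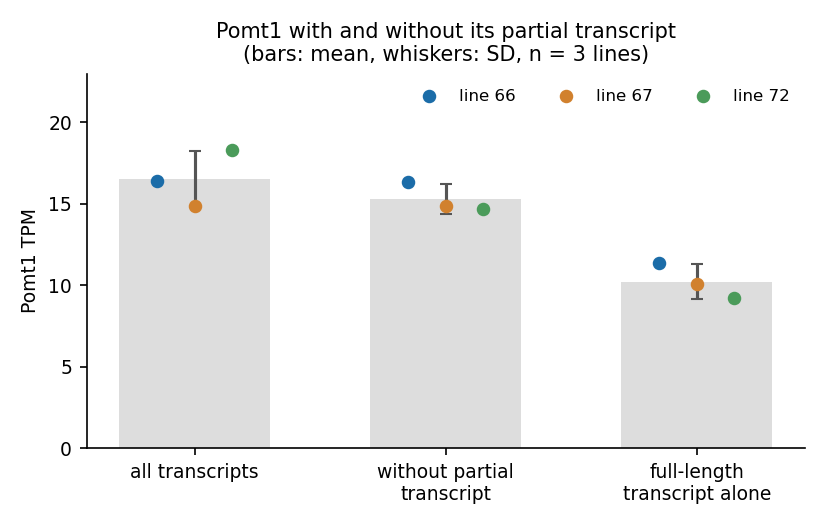
Pomt1 TPM (vertical axis) in lines 66, 67 and 72 (points) for all transcripts, without the partial transcript and for the full-length transcript alone, with the mean (bar) and SD (whisker) over the 3 lines. Line 72 falls from 18.3 to 14.7 TPM when the partial transcript is left out, while lines 66 and 67 stay at 16.4 and 14.9 TPM.

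Pomgnt1 was 73.8% ± 2.14 protein-coding by TPM and 94.5% ± 0.457 by estimated counts (SD, n = 3 each). Among the coding transcripts, those that begin upstream carried 93.8% ± 1.996 of the coding TPM (SD, n = 3). The leading one (ENSMUST00000121052) had 31.7, 30.995 and 35.5 TPM and starts at position 116137755, which is 12763 bases before the first start site listed for Pomgnt1 in RefSeq (116150518). The upstream-start group holds 2 coding transcripts, the leading one and ENSMUST00000120083, which has 518 further bases upstream and had 0 TPM in every line. Together they hold 624 stretches of 31 bases that the downstream-start ones lack. How many of these lie in the leading transcript was not counted, and no stretch is found in the leading transcript alone. Another coding transcript (ENSMUST00000106496) omits an exon of 99 bases, which removes 33 codons without a change of frame (chr4:116153842-116153940, plus strand), and took 3.07%, 3.04% and 2.62% of Pomgnt1 TPM (2.91 ± 0.252, SD, n = 3). The exon is printed in capitals, with 30 bases of each neighbouring exon in lower case, since it is the coding stretch by which this transcript differs from the leading one.
Pomgnt1 exon: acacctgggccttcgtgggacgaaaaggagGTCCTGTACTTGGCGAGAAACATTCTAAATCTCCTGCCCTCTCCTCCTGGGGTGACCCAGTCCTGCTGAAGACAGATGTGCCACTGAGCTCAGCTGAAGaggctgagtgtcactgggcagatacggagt

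Several of these genes share sequence with neighbours, which limits their values. Of the 31-base stretches of B4gat1, 84.2% also occur in AC124502.3, a read-through gene on the same strand with 1.69, 1.68 and 2.07 TPM. With it added, also an alternative chosen after the values were seen, B4gat1 came to 22.1, 25.3 and 29.2 TPM, and the order of the lines was the same. Gmppb overlaps Rnf123 on the opposite strand over 29.6% of its stretches, and Rnf123 was the more abundant gene, at 30.5, 28.3 and 25.7 TPM. The corresponding overlaps were 10.3% for Pomgnt1 with Lurap1 (1.25 to 1.97 TPM) and 5.11% for Pomt2 with Gstz1 (21.9 to 25.0 TPM). The libraries were made with a stranded kit, but the strand setting of the counting is not given in the sources used here, so the part of antisense reads was not tested. Pomgnt2 shared no stretch with another listed gene on either strand, and 99.3% of the Pomk stretches were in no other listed gene of its strand.

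Beside the enzymes, 29 other genes of the pathway were examined, and 21 of them had at least 10 TPM in every line. These were 21 of the 26 with a mean of 1 TPM or more, a level at which 64.2% of all genes did so. With protein-coding transcripts only the count was 19 of the 29, and the share of all genes on that scale was not computed. Dag1, which encodes dystroglycan itself, had 68.6, 77.5 and 81.9 TPM (76.0 ± 6.76, SD, n = 3), above each of the 7 enzymes in each line. Of the core M3 chain, B3galnt2, which adds N-acetylgalactosamine, had 28.1 ± 1.91 TPM and Rxylt1, which adds xylose, had 69.8 ± 5.79 TPM (SD, n = 3 each), while Large2 was below 1 TPM in every line. Rxylt1 was the higher as a gene sum, but only 5.11% ± 0.0660 of its TPM (SD, n = 3) came from transcripts annotated as protein-coding, against 91.2% ± 0.708 for B3galnt2 (SD, n = 3). Rxylt1 lies on chromosome 10, where the median gene was shifted by 0.28 (log2) in line 66. Of the 4 pathway genes on that chromosome, Rxylt1 (76.4, 67.6 and 65.5 TPM in lines 66, 67 and 72) and Nus1 (71.1, 50.6 and 54.2 TPM) were highest in line 66. Tmtc2 (2.37, 2.88 and 4.26 TPM) and Tmtc3 (37.2, 39.1 and 40.1 TPM) were lowest in it, and the part of the shift in these values was not tested.

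As gene sums, all 11 genes of the mannose donor supply, from Mpi to the dolichol enzymes, reached 10 TPM in every line, between 13.7 ± 0.750 TPM for Dolk and 58.6 ± 10.95 TPM for Nus1 (SD, n = 3 each). Gmppb, the catalytic subunit in the same route, lay below all of these means. With protein-coding transcripts only, 10 of the 11 reached 10 TPM in every line, and Dpm1, the catalytic subunit of dolichol-phosphate-mannose synthase, fell to 3.09 ± 0.407 TPM, below Gmppb at 6.59 ± 0.662 TPM (SD, n = 3 each). The 3 genes for UDP-sugars also reached 10 TPM in every line, with 55.9 ± 6.03 TPM for Ugp2, 109 ± 10.3 TPM for Uxs1 and 189 ± 21.1 TPM for Ugdh (SD, n = 3 each). Of the 6 genes that extend or cap O-mannose glycans, only B4galt1 and B4galt2 reached 10 TPM in every line. B3gat1 and B3gat2, glucuronyltransferases that cap such glycans, were the lowest: B3gat1 was listed at 0 in every line, a count that allows up to 3, and B3gat2 had 0.0726 to 0.130 TPM from 19 to 32 estimated counts. Tmtc3 and Tmtc4, which encode O-mannosyltransferases of cadherins, had 38.8 ± 1.47 and 36.7 ± 3.76 TPM (SD, n = 3 each), each above Pomt1 and Pomt2. Over 1.5-fold between lines were 2 of the 26 pathway genes averaging 1 TPM or more, Pmm1 (1.53-fold, highest in line 72) and Tmtc2 (1.56-fold, highest in line 72), set beside the 14.2% of all genes at that level.

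**Figure D5:**
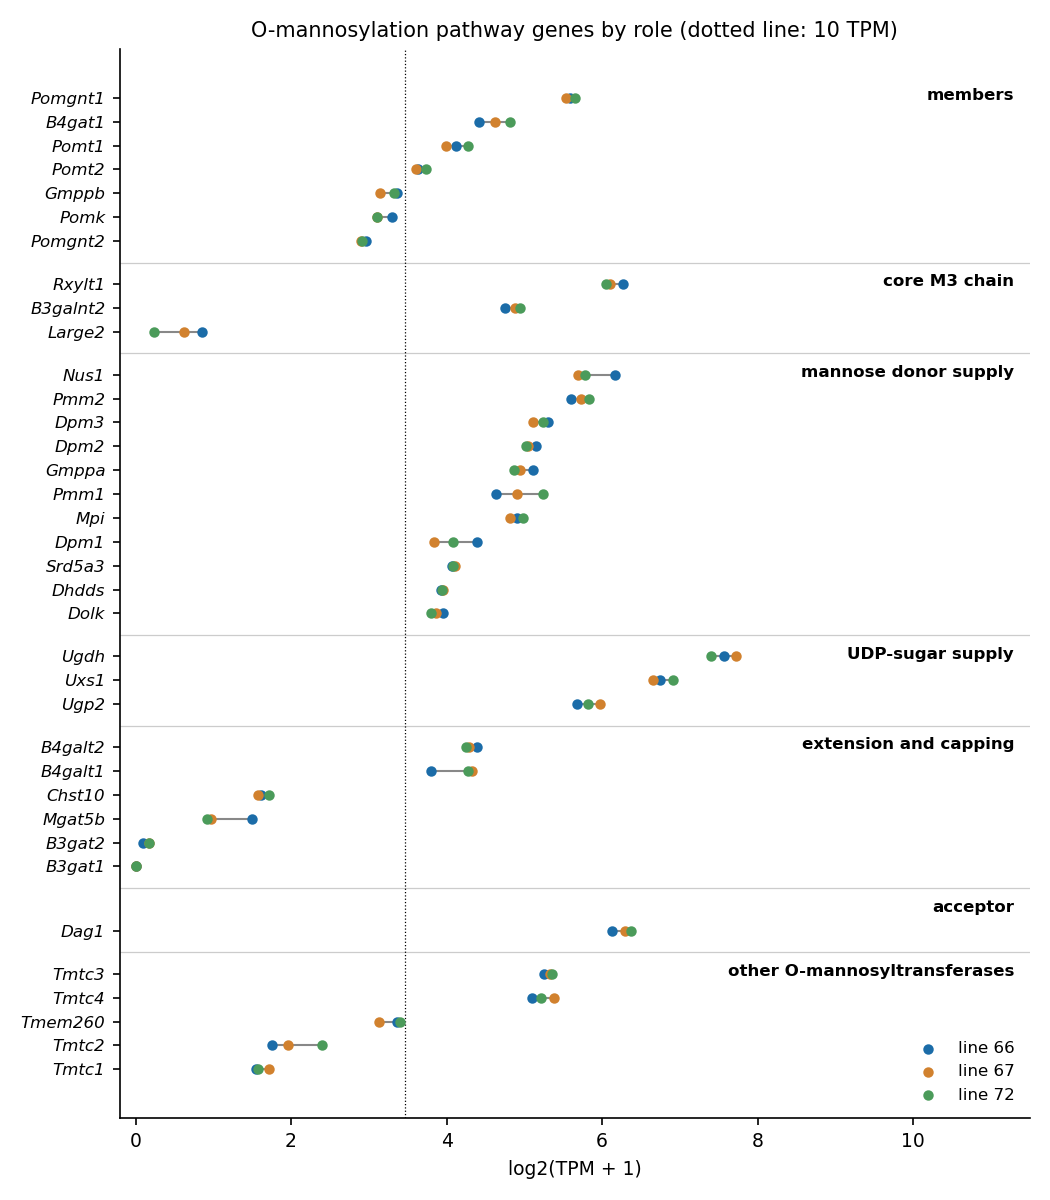
Level of the 7 enzymes and the 29 other pathway genes (rows, grouped by role) as log2(TPM + 1) (horizontal axis) in lines 66, 67 and 72 (points, joined by their range). Mannose donor and UDP-sugar genes all lie right of the dotted line at 10 TPM, whereas Pomgnt2, Pomk and Gmppb among the enzymes lie left of it and Large2, B3gat1 and B3gat2 lie furthest left.

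The genes whose deviations from their own mean were most like those of each enzyme were also listed. They were Ptpn1 for Pomt1, Gpkow for Pomt2, Dda1 for Pomgnt1, Tmem11 for Pomgnt2, Trappc4 for Pomk, Zmym2 for B4gat1 and Lsm10 for Gmppb, each within 0.00408 of the enzyme on the log2(TPM + 1) scale in every line. With 3 lines such likeness is common, since 214 of the genes averaging 10 TPM or more lay within 0.05 of Pomt1 in every line and 895 lay so near to Pomt2, so these names only describe the pattern.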

How the data were processed

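Poly-A-selected, stranded RNA-seq libraries of 3 edited myoblast lines were used, with the line as the replicate. The submitters' processing notes name bcl2fastq 2.20, fastp 0.20, kallisto 0.46.1 and the build GRCm39. The authors deposited an estimated count per transcript, not normalized, in which a read that fits several transcripts is divided among them. They also deposited TPM, the estimated count divided by effective length and scaled to 1000000 per library. The strand setting is not given in the sources used here.

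Transcripts were matched by identifier to GENCODE M21 (GRCm38), whose symbols and coordinates are given and were not converted. Of 121798 transcripts, 1112 had no match (0.493% to 0.535% of counts) and were left out, and 509 matched ones had another length than in the annotation. TPM and counts were summed per gene, and log2 values used a pseudocount of 1. A gene was called detected above 0 TPM in at least 1 line.

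The enzymes and the lists were chosen with earlier results of these data known. Named genes were the 7 enzymes, the fixed pathway and marker lists, genes overlapping an enzyme, and the genes most like each enzyme (the smallest largest difference in deviation over the lines, mean of at least 10 TPM). Some genes of the pathway list are not reported here. Pairs were compared by an exact sign-flip permutation test over lines. The highest-to-lowest ratio was checked on simulated counts (the 8428 genes averaging 10 TPM or more). When 200 of them were raised 2-fold in a single line, 100% passed 1.5-fold, as did 1 of the 8228 others. Only counting noise was simulated, and 9.03% of these genes passed in the measured values, so the simulation gives no rate for real lines. Pomgnt2, Pomk and Gmppb, which average under 10 TPM, were not among the genes simulated. Sequence sharing was measured in stretches of 31 bases. RefSeq start sites came from a table of promoters (GRCm38.p6), in which 5 of the 7 enzymes had an entry.

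Alternatives were a pseudocount of 0.1, CPM plain, with edgeR's TMM factors or with DESeq2's size factors, protein-coding transcripts only, other thresholds, and each line left out. Scaling factors came from edgeR 4.0.16 and DESeq2 1.42.0 in R 4.3.3, and all other values from pandas 2.3.3 and numpy 2.4.6 under Python 3.11.15 (plots from matplotlib 3.10.9).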

Additional observations from a re-analysis of the deposited data

How the results depend on the processing

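The median enzyme level, 3.65 on the log2 scale, was 3.55 with a pseudocount of 0.1, 4.80 in CPM (plain, with TMM factors or with DESeq2 size factors, which are not divided by length) and 3.17 with protein-coding transcripts only, and 3.62 to 3.68 without each line. The number of enzymes reaching the level threshold in every line, 4 at 10 TPM, was 7 at 1 TPM, 3 with protein-coding transcripts only, and 4 without each line. The number over 1.5-fold between lines was 0 under each of its alternatives. Pomt1 minus Pomt2 was 0.47 and changed sign only in CPM (-0.34), with 0.44 to 0.52 without each line. Gmppb minus Gmppa ranged from -1.77 to -1.65 and Pomgnt1 minus Pomgnt2 from 2.63 to 2.69 without each line, and both kept their direction under every alternative (-1.79 to -1.11 and 2.28 to 2.83, the smaller sizes in CPM and with protein-coding transcripts only, in that order), where an exact test of 3 lines cannot fall below p = 0.25. Neighbouring pairs without overlap were 5, and 3 in CPM and 4 with protein-coding transcripts only, both of which changed the order, and 5 to 6 without each line, which did not. The median protein-coding share, 75.5% of TPM as a mean of the medians in each line, was 94.5% of estimated counts and 73.7% to 77.0% without each line. Of 37 single-gene levels under an alternative that kept all lines, 7 moved by less than 1 SD between lines; a mean of 3 lines cannot move by 1 SD when 1 line is left out. B4gat1 was highest in line 72 and lowest in line 66 on every scale tried. No paired analysis was possible because all 3 libraries belong to the same group, so that no groups could be paired by replicate number. Pairs of genes were compared within each line. Few reads were assigned to some transcripts, such as the partial Pomt1 transcript outside line 72, and the effect of depth on them was not tested.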

Other observations

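The median of the mean shares of TPM on protein-coding transcripts was 75.4% for the 7 enzymes, 84.6% for the 28 other pathway genes above 0 and 91.9% for all 11713 protein-coding genes compared, and the difference was not tested. A share under 75% was found for 42.9%, 39.3% and 28.2% of these genes. Dpm1, the catalytic subunit of dolichol-phosphate-mannose synthase, had 19.0% ± 1.36 of its TPM on protein-coding transcripts (SD, n = 3), and Pmm2, which makes mannose 1-phosphate, had 38.9% ± 3.83. Of the protein-coding genes compared, 0.862% had a lower coding share than Rxylt1, 2.58% than Dpm1 and 6.80% than Pmm2. Dag1 had 99.7% ± 0.273 (SD, n = 3). The shares rest on estimated division of reads among overlapping transcripts.

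Within the windows of 300 bases around RefSeq start sites, the one at the first Pomgnt1 start held 51 CpG dinucleotides and 5 matches of GGGCGG, counted on both strands, against a median of 7 CpG over all 32851 windows, 35.7% of which held that motif at least once. The window at the second Pomgnt1 start held 3 CpG and no such match, and those of Pomt1, B4gat1, Pomt2 and Pomgnt2 held 33, 29, 26 and 13 CpG, with 1 match in the Pomt2 window. Most of the Pomgnt1 coding signal was assigned to the start 12763 bases upstream, which no window covers.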
